A study of Homo sapiens with 18 samples.

Results

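The sites described here are U-tracts, runs of at least 5 uridines, that touch or overlap the RRACH motif with which they are listed. They come from experiments that mapped the RNA contacts of hnRNP C in HEK293T, an established line derived from human embryonic kidney. Of 15024 distinct U-tracts in the deposited site lists, 928 (6.18%, exact binomial 95% interval 5.80% to 6.57%) met this rule. They were chosen from positions alone: the motif began directly after the tract (listed distance 0), or lay upstream at a listed distance of 4 or 5 nt, which counts the 5 nt of the motif. In what follows a gap is the number of bases between tract and motif, and a gap of -1 means that the last base of the motif is also the first base of the tract.

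hnRNP C packages nascent transcripts in the nucleus, contacting uridine runs that lie mostly in introns. RRACH, where R is A or G and H is A, C or U, is the short consensus in which METTL3 and METTL14 write N6-methyladenosine (m6A), on the A at position 3. In the m6A-switch model that the study addresses, a U-tract is held in a stem opposite an m6A motif, and methylation loosens that stem so that hnRNP C can reach the tract. In the pairs described here no base lies between the listed motif and the tract. RNA structure was not measured in these lists.

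The 18 samples, 9 groups of 2, are all HEK293T cells. PAR-CLIP, in which crosslinked RNA is recovered with the protein it touches, was done for hnRNP C in wild-type, METTL3 knockdown and METTL14 knockdown cells with the antibody sc-32308. PARCLIP-MeRIP (wild-type, input and IP) added an m6A enrichment to the same crosslinked RNA. RNA-seq covered wild-type, HNRNPC, METTL3 and METTL14 knockdown cells, and how the knockdowns were made is not given in the sources used here. The values analysed are 2 lists of sites, with no value per sample: 13378 distinct U-tracts from PARCLIP-MeRIP (the switch list) and 2748 in a list that the submitters name HCS, which also gives exon or intron, with 1102 in both. Depth is therefore unknown, no test between samples was possible, RNA abundance and occupancy were not available, and the labelled cell type could not be checked against marker genes. How HCS sites were selected, and whether distance to the motif played a part, is not given in the sources used here.

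The first question was how tract and motif meet. In 378 of the 928 U-tracts the motif lay upstream and overlapped the tract by its last base, as in MALAT1, a nuclear long noncoding RNA, and HNRNPC, the gene of the binding protein itself. Another 243 had the motif upstream and directly adjacent, as in COIL, the marker protein of Cajal bodies. The remaining 307 had it directly downstream, as in EWSR1, an RNA-binding protein. In total 66.9% (63.8% to 69.9%) had the motif upstream, against 39.0% of the other 14096 U-tracts. Listed gaps end at 45 nt upstream and 49 nt downstream, which lowers the share of the others. At gaps of 1 to 5 nt, covered on both sides, 35.5% had the motif upstream. Overlapping pairs are upstream by construction, and among the adjacent pairs alone 44.2% had the motif upstream. The definition shapes that share too, because an upstream motif that ends in U and meets the tract counts as overlapping. Adjacent upstream pairs can therefore hold only motifs that end in A or C, a limit that does not apply downstream. Neither share is thus a measure of a preferred side.

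The letters of these junctions follow in part from the definitions. An overlapped motif must end in U, because its last base belongs to the tract, and its target A is then 1 base away from the tract. With an adjacent motif on either side, 2 bases lie between that A and the tract. The sequence of hg19 was not used here, so no letters of single sites are printed. As a reference for how often such junctions occur in DNA, a similar pairing was made in 35116 promoter windows of 300 bases (RefSeq, GRCh38.p14). It used runs of at least 5 T on the transcribed strand that lay away from the window edges (7633 runs). For each, the nearest of the 12 forms that RRACH allows was taken, with U read as T and an overlap permitted. How the lists assigned a motif to a tract is not given in the sources used here, so the pairings may differ.

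In promoter windows, 5309 T runs had a motif in reach, and 161 of them (3.03%) overlapped it, 100 (1.88%) had it adjacent upstream and 118 (2.22%) adjacent downstream. The ratio of overlapping to adjacent upstream runs was 1.61. In the switch list the same ratio was 1.63, from 317 and 195 tracts, and in the HCS list 1.35, from 107 and 79 tracts. The 3 classes together made up 7.14% of promoter runs. Their share was 5.79% in the switch list and 9.93% in HCS. Junctions of this kind were thus found in 373 promoter windows (1.06% of all) without any selection for binding, and promoters differ from introns in base composition.

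**Figure D1:**
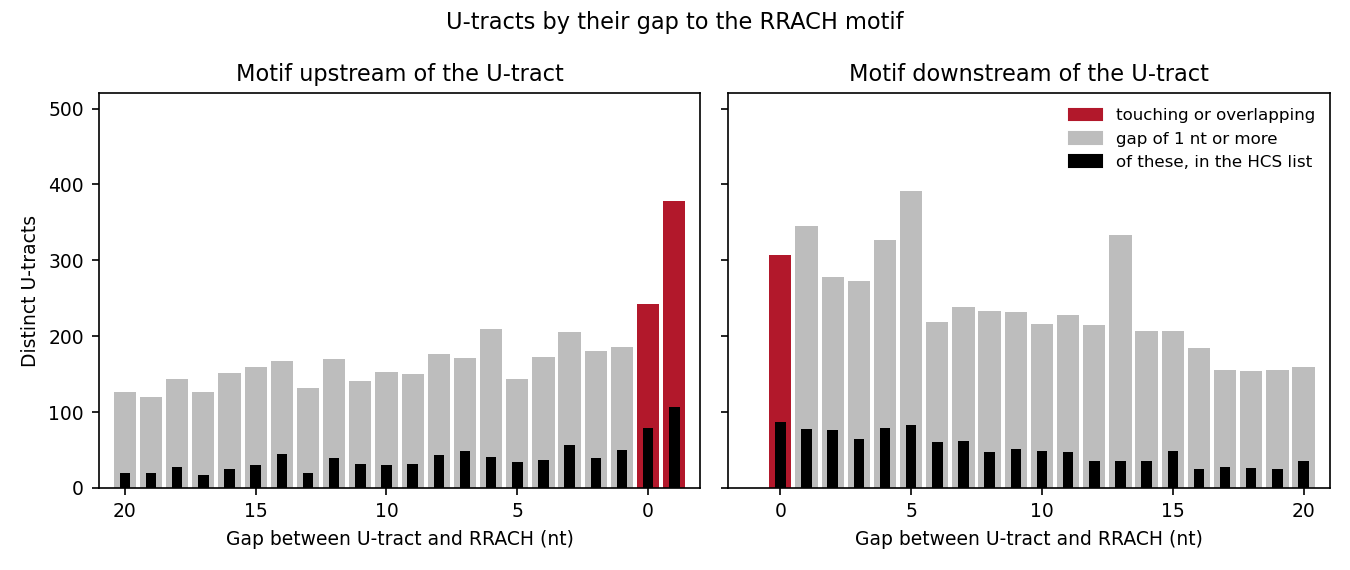
Number of distinct U-tracts (vertical axis) at each gap to the RRACH motif in nt (horizontal axis, up to 20 nt), with the motif upstream (left panel) or downstream (right panel) of the tract. Red bars are the touching or overlapping U-tracts (378, 243 and 307), grey bars those at gaps of 1 nt or more, and the narrow black bars give how many at each gap were in the HCS list.

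At the edge of the rule the counts differed by side. With the motif upstream, 378 U-tracts lay at a gap of -1, 243 at 0 and 186 at 1 nt. On the downstream side, 307 lay at a gap of 0 and 345 at 1 nt, where an overlap is impossible because the motif begins with A or G. The plot of counts by gap shows the upstream overlap as the highest bar of its panel, whereas on the downstream side gaps of 1 nt, of 4 nt (327 tracts), of 5 nt (392 tracts) and of 13 nt (333 tracts) all exceed the adjacent position. Each listed U-tract but 1 was paired with a single motif, so these counts are of single pairs.

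The next comparison set these U-tracts against the others by whether they were in the HCS list, which the rule did not use. HCS sites were more frequent among them: 273 of 928 were HCS sites (29.4%, interval 26.5% to 32.5%), against 2475 of the 14096 other U-tracts (17.6%, interval 16.9% to 18.2%) and 18.3% of all U-tracts. The difference was 11.9 percentage points (Newcombe 95% interval 8.95 to 14.9). Sites of a gene are not independent replicates, so no p-value is given, and all intervals cover counting error only.

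The share was 28.3% (interval 23.8% to 33.1%) for overlapping tracts, 32.5% (interval 26.7% to 38.8%) for those with an adjacent motif upstream and 28.3% (interval 23.4% to 33.7%) for those with an adjacent motif downstream. The interval of each of the differences between classes included 0: -1.87 points (-7.73 to 4.13) for overlapping minus adjacent, and 4.17 points (-3.51 to 11.9) for adjacent upstream minus adjacent downstream. At gaps of 1 to 5 nt it was 23.9%, at 6 to 10 nt 23.2%, at 11 to 20 nt 17.9% and beyond 20 nt 13.0%. Beyond 20 nt it was uneven: single gaps of 42 to 45 nt with the motif upstream, of 46 to 55 tracts each, stood between 21.2% and 24.5%, whereas downstream gaps of 40 nt (395 tracts) and 48 nt (257 tracts) stood at 6.58% and 4.67%. Against gaps of 1 to 5 nt, the nearest band, the touching or overlapping tracts stood 5.54 points higher (interval 2.22 to 8.96).

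Just outside the rule, at a gap of 1 nt, 50 of 186 tracts with an upstream motif were HCS sites (26.9%) and 77 of 345 with a downstream motif (22.3%). On each side alone the adjacent tracts did not differ from these beyond counting error, by 5.63 points upstream (interval -3.16 to 14.1) and 6.02 points downstream (interval -0.651 to 12.7). Over both sides and including the overlaps, the difference from a gap of 1 nt was 5.50 points (interval 0.750 to 10.1).

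**Figure D2:**
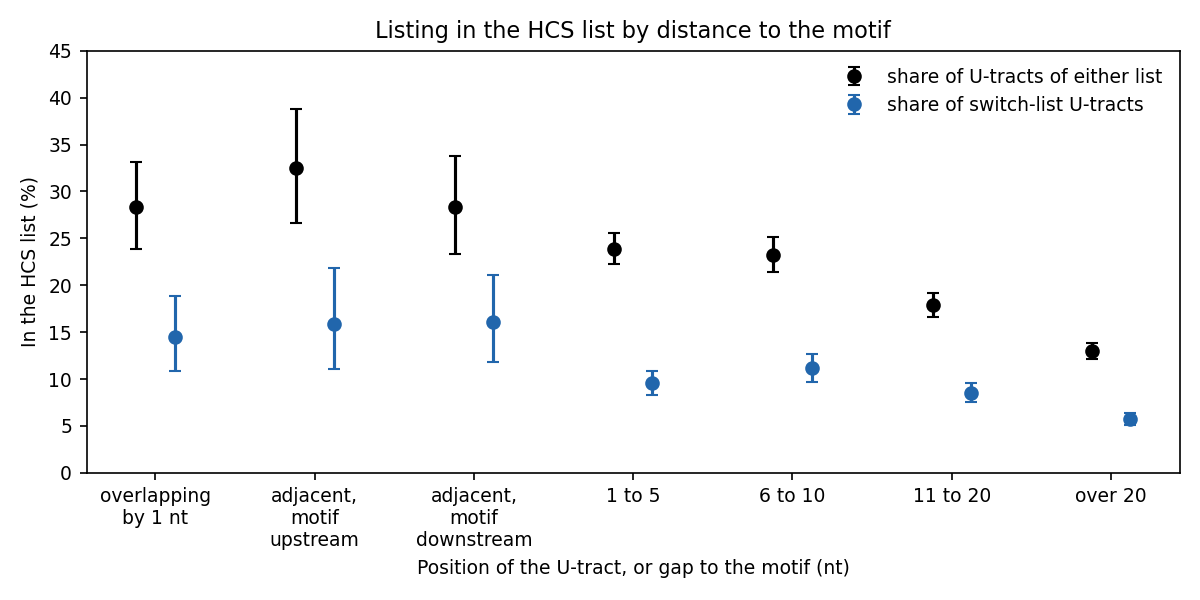
Share of U-tracts in the HCS list in percent (vertical axis) for the 3 kinds of touching or overlapping tract and for bands of gap in nt (horizontal axis). Points are shares and bars exact binomial 95% intervals, in black over U-tracts of either list (28.3%, 32.5% and 28.3% for the 3 kinds, 13.0% beyond 20 nt) and in blue over switch-list tracts only.

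The same contrast appeared among switch-list tracts, where listing in HCS means that both lists named the site. Of 774 touching or overlapping switch-list tracts, 119 were in HCS (15.4%, interval 12.9% to 18.1%), against 983 of the other 12604 (7.80%), a difference of 7.58 points (interval 5.16 to 10.3). Read from the lists instead, such tracts made up 5.34% of the 12276 U-tracts in the switch list only, 9.36% of the 1646 in the HCS list only and 10.8% of the 1102 in both. Among genes that held both kinds of tract, 669 genes with 4793 tracts counted once per gene, the difference in HCS share averaged within genes was 9.96 points.

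Within the HCS list, the share of sites also in the switch list did not differ beyond counting error between touching or overlapping tracts and all others. The switch list held 119 of the 273 (43.6%, interval 37.6% to 49.7%), against 39.7% of the other HCS sites and 40.1% of all HCS sites, and the interval of the difference, 3.87 points, ran from -2.20 to 10.1. Against HCS sites at gaps of 1 to 5 nt, of which 33.6% were in the switch list, the difference was 9.98 points (interval 3.04 to 17.0). That band was the lowest, with 41.4% at 6 to 10 nt, 43.1% at 11 to 20 nt and 40.8% beyond 20 nt.

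Tract length was compared next, because hnRNP C is known to favour longer runs of uridines. Touching or overlapping tracts were less often long. Of the 928, 58 had 8 nt or more (6.25%, interval 4.8% to 8.0%). The others reached 9.80%, which put the touching tracts -3.55 points from them (interval -5.03 to -1.74). For 10 nt or more the shares were 2.48% and 4.97% (difference -2.49 points, interval -3.40 to -1.23). The median was 5 nt in both groups, and 67.1% of these tracts and 64.0% of the others had exactly 5 nt, with an interval of the difference (-0.0781 to 6.16 points) that included 0.

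Long tracts became more frequent with distance on the whole, with 7.75% of 8 nt or more at gaps of 1 to 5 nt and 10.7% beyond 20 nt. Against gaps of 1 to 5 nt the touching tracts did not differ beyond counting error (-1.50 points, interval -3.27 to 0.505). With the motif adjacent downstream 6.19% were of 8 nt or more, whereas at a downstream gap of 1 nt 12.2% were (difference -5.98 points, interval -10.4 to -1.52). The share was nearer at a downstream gap of 2 nt, 8.27%, and over all downstream gaps of 1 to 5 nt, 8.85%. For overlapping tracts the share was 6.88%, and 4.30% at an upstream gap of 1 nt, with an interval of the difference from -1.92 to 6.25 points. Compared with all other tracts, the higher HCS share was present at each tract length: 29.1% against 18.3% for 5 nt, 30.3% against 16.6% for 6 nt, 35.5% against 14.9% for 7 nt and 24.1% (interval 13.9% to 37.2%, 14 of 58 tracts) against 16.6% for 8 nt or more. Tracts at gaps of 1 to 5 nt stood nearer, at 24.7%, 24.7%, 19.3% and 19.1% in the same order. Their intervals overlapped those of the touching tracts at each length.

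**Figure D3:**
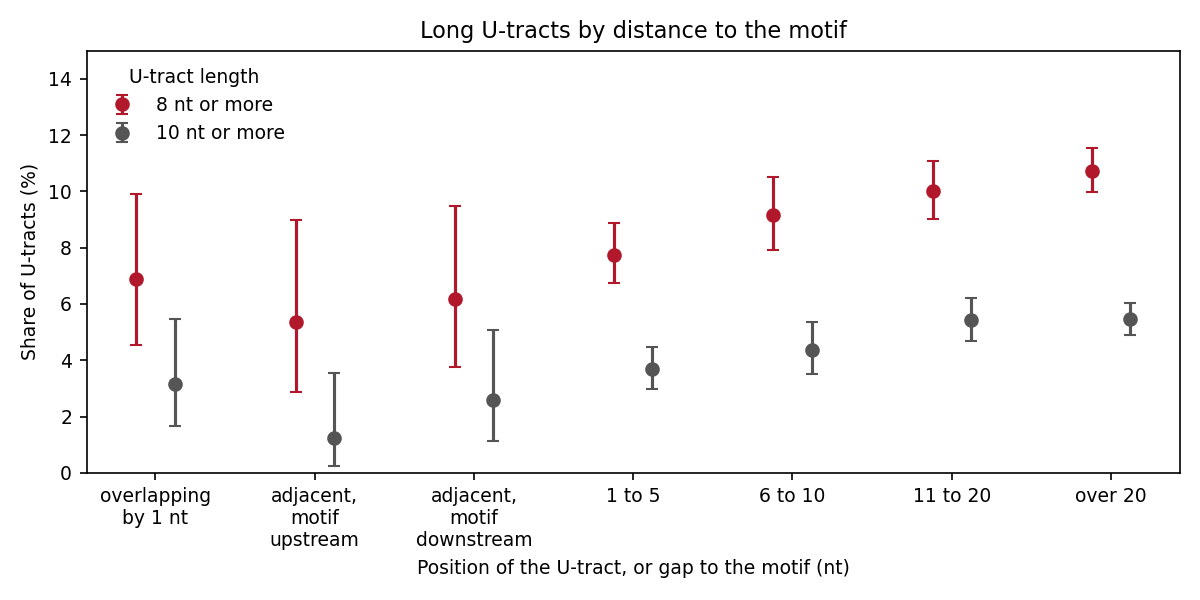
Share of U-tracts with at least 8 nt (red) or 10 nt (grey) in percent (vertical axis), for the 3 kinds of touching or overlapping tract and for bands of gap in nt (horizontal axis). Points are shares and bars exact binomial 95% intervals. For 8 nt or more the 3 kinds read 6.88%, 5.35% and 6.19%, and the band beyond 20 nt 10.7%.

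The longest such tract, 21 nt, was in ADPGK, an ADP-dependent glucokinase, at chr15:73074868-73074888 (hg19, minus strand), with the motif adjacent downstream at chr15:73074863-73074867. DNMT1, the maintenance DNA methyltransferase, followed with 19 nt at chr19:10283081-10283099 (minus strand), in an intron, overlapped by its motif and in both lists. DIP2B held 16 nt at chr12:50909022-50909037 (plus strand) with an adjacent motif upstream. CLCC1, a chloride channel of the endoplasmic reticulum (chr1:109474250-109474264, minus strand, overlapping), and the methionine synthase MTR (chr1:237057299-237057313, plus strand, motif downstream), held 15 nt each. Of these 5, the DNMT1 tract was an HCS site, beside 24.1% (14 of 58) of touching or overlapping tracts of 8 nt or more. With 5 tracts, this count is no result about the longest ones.

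Exons and introns were compared within the HCS list. Of the 273 touching or overlapping HCS sites, 48 were exonic (17.6%, interval 13.3% to 22.6%) and 225 intronic, against 16.9% exonic among other HCS sites and 17% of all HCS sites, with a difference of 0.653 points (interval -3.68 to 5.81). The exonic ones were in the switch list in 30 of 48 cases (62.5%), and the intronic ones in 89 of 225 (39.6%), a difference of 22.9 points (interval 7.38 to 36.7). For the other HCS sites these shares were 57.5% and 36.1%, and the touching sites differed from them by 4.98 points in exons (interval -9.90 to 18.2) and 3.47 points in introns (interval -3.04 to 10.3), both within counting error. Exonic touching tracts were of exactly 5 nt in 50% of cases, against 69.8% of the intronic ones and 68.3% of other exonic HCS sites. The difference from other exonic HCS sites was -18.3 points (interval -32.5 to -3.89), with 48 tracts behind it. It is 1 of many shares compared here and was noticed after the values were seen.

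The 30 exonic sites found in both lists comprised 10 overlapping, 8 adjacent upstream and 12 adjacent downstream. The longest was that of MALAT1, a tract of 11 nt at chr11:65270090-65270100 (plus strand), whose motif at chr11:65270086-65270090 ends on the first base of the tract. LMAN2, a lectin that carries glycoproteins in the secretory pathway, held an overlapping tract of 10 nt at chr5:176759027-176759036 (minus strand). PRPF4B, a kinase of splicing factors, held an overlapping tract of 8 nt at chr6:4064494-4064501 (plus strand).

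Tracts of 7 nt were held by 3 genes of this set. RALGPS2, an exchange factor for Ral GTPases (chr1:178886143-178886149, plus strand), had the motif downstream. RNMT, the mRNA cap methyltransferase (chr18:13764170-13764176, plus strand), and the zinc transporter SLC39A1 (chr1:153931742-153931748, minus strand) had it upstream. The others named by length held 6 nt. COIL (chr17:55027395-55027400, minus strand), the nuclear import receptor IPO9 (chr1:201845420-201845425, plus strand), the methionine aminopeptidase METAP1 (chr4:99966379-99966384, plus strand) and the HMG-box protein BBX (chr3:107526551-107526556, plus strand) had the motif adjacent upstream. It was adjacent downstream in the splicing regulator HNRNPM (chr19:8553747-8553752, plus strand), in EWSR1 (chr22:29696191-29696196, plus strand) and in the proteasome subunit PSMD11 (chr17:30808773-30808778, plus strand). In dystroglycan (DAG1, chr3:49570831-49570836, plus strand) and the phosphatidylinositol kinase PI4K2A (chr10:99434530-99434535, plus strand) it overlapped the tract.

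The sites were spread thinly over genes. A touching or overlapping tract was found in 802 of 4469 genes with a listed U-tract (17.9%), 680 of them held exactly 1 and 19 held 3 or more. Here a site listed under several genes counts once for each, which makes 947 of 15371. Among genes with a single listed tract, 7.71% held a touching or overlapping one. This was 17.9% for genes listing 2 to 5 tracts, 38.2% for 6 to 20, and 84.6% for the 39 genes with more than 20. The share of tracts that touched or overlapped was 7.71%, 6.66%, 5.38% and 5.78% in the same order. Genes with more listed tracts therefore held at least 1 such site more often, although the share of their tracts was not higher.

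POLA1, which encodes the polymerase that starts DNA strands with primase, led with 5 of its 34 tracts, all on the plus strand. The motif was adjacent downstream of those at chrX:24718471-24718476, chrX:24776606-24776610 and chrX:24793950-24793954, adjacent upstream of chrX:24718938-24718942, and overlapped the 8 nt tract at chrX:24810230-24810237. None of the 5 was among the 8 HCS sites of POLA1, beside 29.4% in the HCS list over all touching or overlapping tracts. With 5 tracts, a count of 0 is no result about the gene. ZC3H11A, a zinc finger RNA-binding protein linked to mRNA export, held 4 of 14, with 2 in the HCS list. Both of its overlapping tracts were also listed under the embedded gene ZBED6. The tract at chr1:203768990-203768995 (plus strand) was exonic and in the HCS list only, and the tract at chr1:203768432-203768436 was in the switch list only, which gives no exon or intron. Its intronic HCS site at chr1:203797327-203797331 was in both lists. PAN3, a subunit of the PAN2-PAN3 deadenylase that shortens poly(A) tails, held 4 of its 9 tracts, and 1 of them, at chr13:28763744-28763748 (plus strand), was an HCS site.

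KANSL1, a subunit of the NSL complex that acetylates histones, held 3 of 22, and its HCS sites among them, at chr17:44156529-44156534 and chr17:44199612-44199618 (minus strand), were intronic, in both lists and had the motif adjacent upstream. The other genes that the naming rule took, each with 3 sites and 1 of them in the HCS list, were LRPPRC, which stabilises mitochondrial mRNAs, the forkhead factor FOXK2, BRWD1, the nuclear receptor coactivator NCOA2, DNMT1 and the histone H3 demethylase KDM6A. In BRWD1 the motif was adjacent upstream of all 3. DNMT1, KDM6A and LRPPRC held 1 of each kind.

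**Figure D4:**
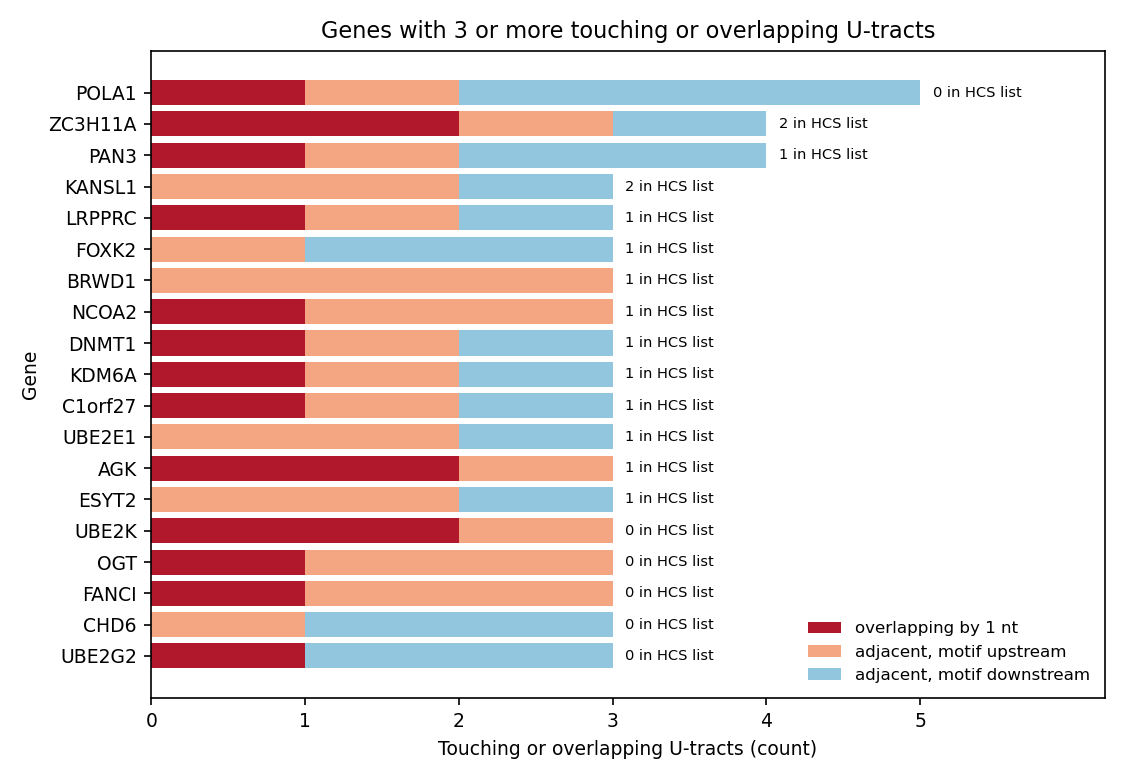
Number of touching or overlapping U-tracts (horizontal axis) in the 19 genes (vertical axis) that hold 3 or more, split into overlapping tracts (red), adjacent with the motif upstream (orange) and adjacent with the motif downstream (blue). The text at each bar gives how many were in the HCS list, from 0 of 5 in POLA1 to 2 of 4 in ZC3H11A and 2 of 3 in KANSL1. Over all touching or overlapping tracts 29.4% were.

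In HNRNPC, 2 of 32 listed tracts met the rule, both by overlap, beside 6.18% of all distinct U-tracts. The 5 nt tract at chr14:21718922-21718926 (minus strand) was intronic and in the HCS list only, and the 9 nt tract at chr14:21723516-21723524 was in the switch list only. In MALAT1 it was 1 of 12, described above, with the nearest other tract by gap, at chr11:65271083-65271087, 1 nt from its motif. METTL3 and METTL14 held 3 listed tracts each and none that touched its motif, with smallest gaps of 7 and 8 nt. With so few tracts, the counts in HNRNPC, MALAT1, METTL3 and METTL14 are no result about these genes.

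Gene lists were described by how many of their genes with a listed U-tract held a touching or overlapping one, beside 17.9% over all genes, and by the share of their tracts, beside 6.16% over all. Lists of genes with many tracts hold more by number alone, so the share of tracts is the nearer comparison. The median gene held 0 in every list and over all genes, and no list was tested. HCS counts of a list's touching tracts are read beside 29.1% over all genes (276 of 947), and with the few touching tracts of most lists a count of 0 or 1 is no result about the list. Chromatin modifiers and remodellers had 26 of 66 genes and 38 of 452 tracts (8.41%), 14 of these in the HCS list. MLL5, a histone methyltransferase homologue, held 2, both overlapping and both intronic HCS sites, at chr7:104720266-104720270 and chr7:104729940-104729944 (plus strand). DNA replication and repair had 15 of 67 genes and 25 of 303 tracts (8.25%), of which POLA1 alone held 5. Of the 25, 5 were in the HCS list. Those were in POLD3 and POLQ, a DNA polymerase subunit and a repair polymerase with 2 touching tracts each, in ORC2 of the origin recognition complex, and in RAD54B and TOP1.

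hnRNP, PTB and poly(C) binding proteins had 10 of 25 genes and 13 of 205 tracts (6.34%), 6 of them in the HCS list. PTBP2, a splicing repressor, held 2, and the one adjacent to a downstream motif at chr1:97216114-97216119 (plus strand) was intronic and in both lists. HNRNPF held 1 listed tract in all, an exonic and overlapping HCS site at chr10:43881474-43881478 (minus strand), not in the switch list. HNRNPH3 held an intronic site of both lists at chr10:70094285-70094289 (plus strand). The other HCS sites of this list were in HNRNPM and SYNCRIP.

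Among splicing factors of the SR and SR-related kind the counts were 10 of 28 genes and 12 of 207 tracts (5.80%), with 1 of the 12 in HCS, in TRA2B, which promotes exon inclusion, at chr3:185635772-185635776 (minus strand, intronic). The core spliceosome had 5 of 33 genes and 6 of 116 tracts (5.17%), with 0 of the 6 in the HCS list. m6A writers, erasers and readers had 4 of 19 genes and 5 of 104 tracts (4.81%), with 0 of the 5 in HCS. RBM15, an adaptor of the writer complex, held 2, and the reader YTHDF2, FMR1 and PRRC2A held 1 each. As first written this list also held METTL10, and its counts were then 5 of 20 genes and 6 of 116 tracts, with 1 HCS site, that of METTL10. Mitosis, cohesin and cell cycle genes had 10 of 59 genes and 12 of 275 tracts (4.36%), with HCS sites in the spindle checkpoint kinase BUB1, the cohesin subunit STAG1 and the retinoblastoma gene RB1.

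Ubiquitin ligases and deubiquitinases had 14 of 61 genes and 16 of 313 tracts (5.11%), with HCS sites in UBR4, USP37 and WWP1. The UBR4 site was exonic and in both lists, at chr1:19525101-19525106 (minus strand). Cytosolic ribosomal proteins had 3 of 42 genes and 3 of 93 tracts (3.23%). RPS3 held an intronic overlapping site of both lists at chr11:75130051-75130056 (plus strand), and RPS7 an exonic overlapping one in the HCS list only, at chr2:3628402-3628406 (plus strand).

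Nuclear and host-gene long noncoding RNAs had 5 of 14 genes and 6 of 126 tracts (4.76%). Beside MALAT1, JPX, an activator of XIST, held 2, of which the overlapping tract at chrX:73197946-73197952 (plus strand) was an intronic HCS site of both lists. Over all genes, 23 of the 928 sites (2.48%, interval 1.58% to 3.70%) were listed only in transcripts with a RefSeq type other than protein-coding, against 2.71% of the others. Sites whose transcripts had no type in the RefSeq table were not counted as noncoding, so both shares may be too low. Several of the 23 were in pseudogenes such as SMG1P1, SUZ12P1 and CCT6P3, where reads may be shared with a near-identical copy, so their assignment is uncertain.

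Motifs were seldom met from both sides. The 928 tracts touched or overlapped 925 motifs, and 3 motifs lay directly between a pair of U-tracts, in ESYT2, RABGEF1 and TK1, named because there were only 3. In TK1, thymidine kinase, the motif at chr17:76174259-76174263 (minus strand) followed directly on the 7 nt tract at chr17:76174264-76174270 and overlapped another 7 nt tract at chr17:76174253-76174259. Both were in the switch list, and the former was also an intronic HCS site. In ESYT2, which tethers the endoplasmic reticulum to the plasma membrane, and in the Rab5 exchange factor RABGEF1, both tracts were adjacent and in the switch list only. Of the 925 motifs, 123 (13.3%) were listed with more than 1 U-tract, close to 13.8% of the 12129 other motifs, and 136 further tracts lay at a median gap of 19 nt from these motifs. Of those further tracts 18 (13.2%) were HCS sites, beside 18.3% of all U-tracts, 17.9% at gaps of 11 to 20 nt and 13.0% beyond 20 nt. Whether the further tracts differ from others at like gaps was not tested.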

How the data were processed

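The site lists were deposited by the authors as other values than counts: chromosome and transcript positions, U-tract lengths and distances in nt, per the file headers. Trimmomatic, Bowtie 1.0.0 and hg19 are named in the submitters' processing notes. For site calling, thresholds, pooling of replicates and treatment of repeats the sources used here name no method, and each of these could change which sites are listed.

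Entries (17352 and 2798) were reduced to distinct U-tracts by chromosome, strand, start and end, and 3 copies on Y of X sites were counted once. Listed distances matched the chromosome positions in every entry. Symbols were missing in 760 entries and replaced by a date in 76, and were looked up by transcript in a RefSeq table of GRCh38.p14 used for names and biotypes only, which gave 757 and 75. Shares have exact binomial and differences Newcombe intervals at 95%, which treat sites as independent. They were tried on simulated counts drawn independently, as the intervals assume. Such a trial cannot show how the intervals hold for sites that share a gene.

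Members and gene lists were chosen with earlier results of these data known. METTL10 was dropped from the m6A list after values were seen, because it methylates protein, which removed the only touching HCS site of that list. The rule for names took the 10 leading genes, 5 longest tracts, up to 15 exonic sites in both lists, HNRNPC, METTL3, METTL14, MALAT1 and up to 4 genes per list with HCS sites. Named outside it, after their values were seen, were TOP1, SYNCRIP, RBM15, FMR1, PRRC2A, YTHDF2, ESYT2, RABGEF1, TK1, ZBED6 and the pseudogenes. Python 3.11.15, pandas 2.3.3, scipy 1.17.1 and matplotlib 3.10.9 were used.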

Additional observations from a re-analysis of the deposited data

How the results depend on the processing

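The results were recomputed under 52 combinations of result and alternative, and 44 stayed within the interval of the reported value or, for counts, within 1.5 times. Some of these could hardly move, so the tally is no measure of robustness. Only 1 tract had 2 motifs, and the median stood at 5 nt, the shortest length listed. The difference in HCS share kept its direction in all 11 alternatives run for it, from 5.54 to 12.6 points. The lowest of the 11, 5.54 points, came from comparing with gaps of 1 to 5 nt only, and switch-list tracts alone gave 7.58 points, from an HCS share of 15.4%. Both alternatives were chosen after seeing the data. Outside the 11, the difference from a gap of 1 nt was 5.50 points (interval 0.750 to 10.1). Adjacent downstream tracts stood 4.81 points above downstream gaps of 1 to 5 nt, with an interval that included 0 (-0.396 to 10.5). The share with the motif upstream depended on the definition, being 100% for overlapping pairs by construction, 44.2% for adjacent pairs and 55.3% with gaps of at most 1 nt, a setting that also raised the number of sites to 1459. Adding METTL10 back to the m6A list moved its touching HCS sites from 0 to 1. No paired analysis was possible because no list gives a value for any single sample, and for the same reason no replicate could be left out. The depth behind the lists is unknown and limits every count here by an unmeasured amount.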

Other observations

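By chromosome, the share of listed U-tracts that touched or overlapped their motif ran from 3.83% on chromosome 5 (28 of 731) to 8.75% on the X chromosome (44 of 503). Chromosome 1 held the most, 119 of 1891 (6.29%). The sites lay at a median of 23049 nt from the transcript start, against 21373 nt for other U-tracts, and 471 of 928 (50.8%) were on the plus strand. No test was made of these values.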
